A study of Mus musculus with 6 samples.

Results

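The genes described here encode the proteasome of mouse pancreatic macrophages: every gene of the deposited table whose symbol is Psma, Psmb, Psmc, Psmd, Psme, Psmf or Psmg with a number, which gave 48 of 31617 genes. They fall into 5 immunoproteasome genes (Psmb8, Psmb9, Psmb10, Psme1 and Psme2), 31 constitutive subunits of the core and regulatory particles, and 12 others, namely 3 further regulators, 7 assembly chaperones, the germ-cell subunit Psma8 and Psme2b. Wild-type Balb/c mice were the source of the macrophages, which were enriched from pancreas with CD45.2 beads and sorted as CD45+CD11b+F4/80+ cells. Caerulein, a peptide that acts like cholecystokinin and overdrives acinar secretion, was injected 10 times at hourly intervals to cause pancreatitis, and the sampled time points were days 1, 3, 4, 5 and 7 after it. Mock mice serve as day 0. They received saline per the design text, while the sample label gives their treatment as none. The labels also use the abbreviation RAP for the model and do not spell it out. Each of the 6 groups is represented by a single library made from a pool of over 3 mice. Differences between groups therefore have no replicate check, and the comparisons are descriptions of these libraries.

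The libraries held between 14853084 (day 4) and 25726455 reads (day 3). The sort genes were present in every library, with Adgre1, which encodes F4/80, between 9671 and 23702 normalised reads, Ptprc between 7282 and 12626, and Itgam, which encodes CD11b, between 678 on day 4 and 2627 on day 1. Markers of other cells were also present. The 7 acinar markers together had 479559 normalised reads in mock and 562229 on day 7, against 22167 to 74680 on the other days. The 5 fibroblast and stellate cell markers summed to 14114 on day 3 and to between 420 and 7563 elsewhere, and 5 markers of dividing cells to 10890 on day 3 and to between 361 and 3164 elsewhere. All markers of these lists had reads in every library except 1 acinar marker at 0 reads on day 1. In sorted bulk RNA, fewer cells of a type and less RNA per cell cannot be told apart.

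The proteasome is the protease of the cytosol and nucleus that degrades ubiquitin-tagged proteins. Its core particle is a barrel of alpha and beta rings, in which Psmb5, Psmb6 and Psmb7 carry the active sites. The regulatory particle, built of a base with ATPases (Psmc genes) and a lid (Psmd genes), recognises, unfolds and feeds in the substrate. Interferons, above all interferon gamma, induce Psmb8, Psmb9 and Psmb10, which take the places of Psmb5, Psmb6 and Psmb7 in newly assembled particles, together with Psme1 and Psme2, which form an activator cap. The resulting immunoproteasome is known for producing peptides that suit MHC class I, and macrophages and other leukocytes carry it at rest.

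The 5 immunoproteasome genes had 2 peaks, on day 1 and on day 5, with low values on days 3 and 4 between them and again on day 7. Psmb8, the inducible chymotrypsin-like subunit, had 2281 normalised reads in mock and 4131, 1669, 1547, 2902 and 1748 on days 1, 3, 4, 5 and 7. Psmb9, which takes the place of Psmb6, went from 2040 in mock through 3481, 1536, 1277 and 2579 to 1545 on day 7. Both were thus above mock on days 1 and 5 and below it on the other days, and both were lowest on day 4. Psmb10, which takes the place of Psmb7, had 4378 in mock and 8464, 3546, 2755, 4904 and 2411 on the 5 days. It shared the 2 peaks but was lowest on day 7.

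The activator genes had the same peaks, with the second less marked. Psme1 had 5045 normalised reads in mock and 10362, 4670, 4015, 5999 and 3036 on days 1, 3, 4, 5 and 7. Psme2 had 4127 in mock and 8181, 4043, 2713, 4116 and 1951, so that its day 5 value stood at the mock level. Psme2b, a separate gene annotated for the same kind of subunit, had 286 in mock and 500, 198, 184, 414 and 253, and its order of days was that of Psmb8. Reads shared between Psme2 and Psme2b may have been counted for either gene, so the split between them is uncertain.

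Against mock, the median log2 ratio of the 5 genes (of normalised reads with a pseudocount of 17.8) was 0.95, -0.30, -0.60, 0.25 and -0.73 for days 1, 3, 4, 5 and 7. The log2 ratio of reads for Psmb8 had a 95% counting interval of 0.78 to 0.93 on day 1, -0.53 to -0.37 on day 3 and 0.27 to 0.43 on day 5. These intervals cover the counting error of reads only and say nothing of the spread between pools of mice. Only Psme1 was at least 2-fold higher than mock on any day (1.04 on day 1), and only Psme2 at least 2-fold lower (-1.07 on day 7). Among the 10000 expressed genes (the highest by mean normalised reads), the share at least 2-fold higher than mock on day 1 was 6.68%, and the share lower was 9.58%. For day 7 these shares were 1.96% higher and 6.57% lower. From day 1 to day 3 all 5 genes were lower by at least 2-fold (median -1.17), as were 3 of the 31 constitutive subunits (median -0.76) and 8.21% of expressed genes, with 9.72% higher. From day 3 to day 4 the immunoproteasome genes were lower by a median of only -0.26 and 0 of 5 passed 2-fold, against a median of -0.65 and 1 of 31 lower for the constitutive subunits and 5.89% lower and 3.23% higher for expressed genes. From day 4 to day 5 the directions parted: all 5 immunoproteasome genes were higher (median 0.83, range 0.58 to 1.00), 1 of them at least 2-fold, whereas 13 of 31 constitutive subunits were (median -0.12), 0 of them 2-fold, with 5.4% of expressed genes higher and 3.11% lower. From day 5 to day 7 both sets were lower, the immunoproteasome by a median of -0.98 (2 of 5 at least 2-fold) and the constitutive subunits by -0.63 (1 of 31), with 4.68% of expressed genes lower and 5.07% higher. The signs of the 5 medians held under every scaling tried, and the one for day 5 came down to 0.10 with libraries scaled to equal totals.

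**Figure D1:**
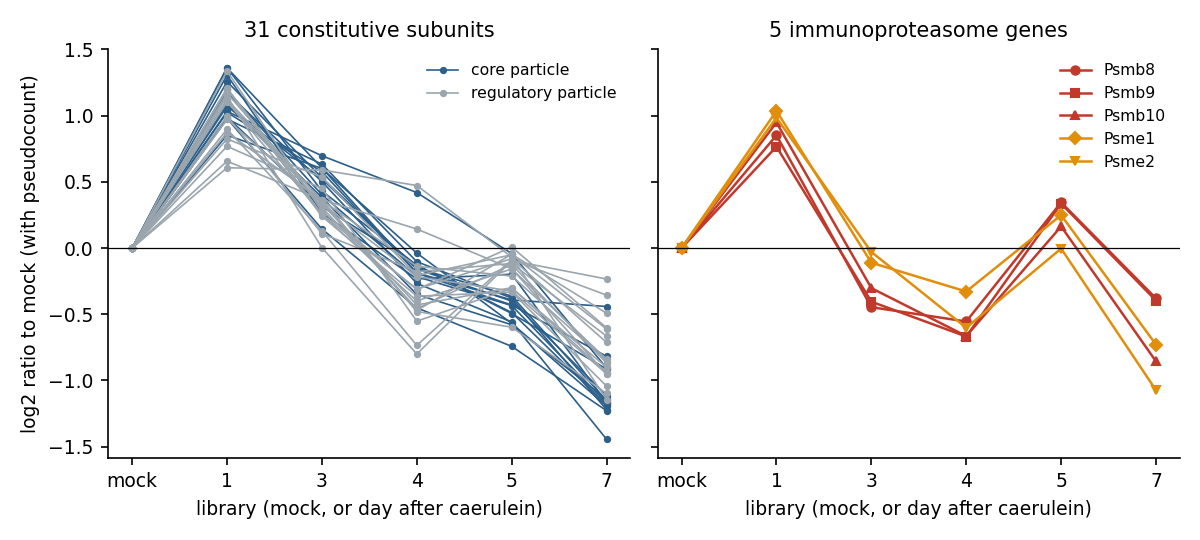
Log2 ratio to mock (y axis) of each of the 31 constitutive subunits (left, core particle in blue and regulatory particle in grey) and the 5 immunoproteasome genes (right) in the 6 libraries, evenly spaced on the x axis; each line is 1 gene. Both sets are highest on day 1, but the constitutive subunits are lower on each later day in the median, while the immunoproteasome genes are low on days 3 and 4 and have a second peak on day 5.

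The 31 constitutive subunits followed another course: a peak on day 1, followed by ever lower medians to day 7. From day 4 to day 5, however, 13 of the 31 were higher with the deposited scaling, against 5927 of the 10000 expressed genes. Of the 13, 1 was among the 14 core genes and the rest were in the regulatory particle. All 31 had their highest value on day 1, and 29 had their lowest on day 7, the exceptions being the regulatory particle subunits Psmd2 and Psmd3, which were lowest on day 4. The median log2 ratio to mock was 1.09, 0.36, -0.22, -0.30 and -0.94 for days 1, 3, 4, 5 and 7, while that of all expressed genes lay between -0.11 and 0.15. On day 1 all 31 were above mock and 19 were at least 2-fold higher. On day 3 all 31 were still above mock and 0 passed 2-fold, although Psmd3 was level with it (2457 against 2451 normalised reads). On day 7 all 31 were below mock and 13 were at least 2-fold lower. Under the other scalings 30 of 31 were above mock on day 3, and 0 to 2 of 31 were above it on day 7. The 19 and 13 subunits past 2-fold stand against the 6.68% and 6.57% of all expressed genes given above. By any amount and with the deposited scaling, 6011 of the 10000 expressed genes were above mock on day 1 and 5670 on day 3. On day 7, 5760 were below it. The acinar markers took 2.85% of all reads in mock and 4.07% on day 7, against 0.119% to 0.412% on days 1 to 5, and the fibroblast and dividing-cell markers were highest on day 3. In the 4 libraries with few acinar reads the constitutive median was 1.09, 0.36, -0.22 and -0.30 on days 1, 3, 4 and 5, each against the mock library. The part of these cells in the values was not tested.

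The height of the day 1 peak depended on scaling, its direction did not. Of the 47 members that counted as expressed, 20 were at least 2-fold higher than mock on day 1 (19 constitutive subunits and Psme1) and 15 at least 2-fold lower on day 7 (13 constitutive subunits, Psme2 and the chaperone Psmd10). For days 3, 4 and 5 the count was 0 members in either direction. Of the expressed genes, 3.73%, 3.31% and 3.68% passed 2-fold upward on these 3 days and 5.71%, 8.11% and 6.4% downward. With libraries scaled to equal totals the counts came to 5 on day 1 and 1 on day 7, and with quantile normalisation to 3 on each of the 2 days. The constitutive median was at least 0.76 on day 1 and at most -0.66 on day 7 under all scalings tried. Psma8 was below the level of expressed genes, with 21.8 to 47.9 normalised reads.

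**Figure D2:**
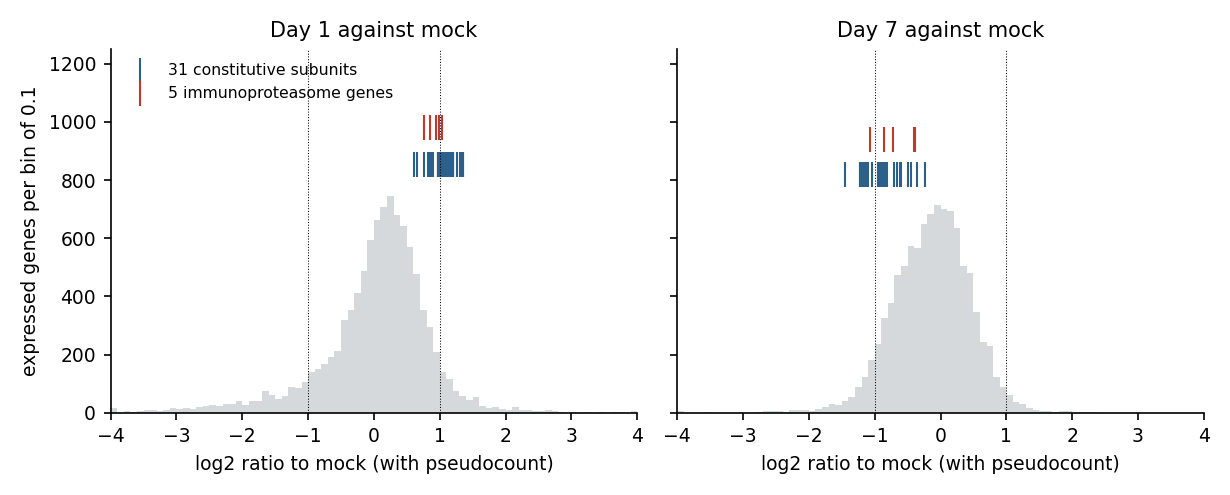
Number of expressed genes (y axis, grey bars, bins of 0.1) by log2 ratio to mock (x axis) on day 1 (left) and day 7 (right); values beyond 4 are placed in the end bins, ticks mark the 31 constitutive subunits (blue) and 5 immunoproteasome genes (red), and dotted lines mark 2-fold. The constitutive subunits lie between 0.61 and 1.36 on day 1 and between -1.44 and -0.23 on day 7.

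The active-site subunits Psmb5, Psmb6 and Psmb7 shared the course of the other constitutive subunits. Psmb5, the constitutive chymotrypsin-like subunit, had 356 normalised reads in mock and 743, 539, 311, 267 and 258 on days 1, 3, 4, 5 and 7. Psmb7, the trypsin-like subunit, had 626 in mock and 1634, 961, 546, 460 and 347. Psmb6, the caspase-like subunit, had 3850 in mock and 7894, 6252, 5155, 3740 and 2046, and was the only core particle gene still above mock on day 4. Psmb7 and the beta subunit Psmb3 had the highest ratios of all constitutive subunits on day 1, level at 1.36. Psmb3 had 2608 normalised reads in mock. Its 5 values by day were 6728, 3522, 2382, 1846 and 1376. Psmb2 had 3982 in mock, then 9540, 5765, 3584, 3093 and 1780, Psmb4 had 2500, then 5330, 3262, 1958, 1667 and 1123, and Psmb1 had 3534, then 6396, 5369, 3442, 2377 and 1535. With the deposited scaling these 3 structural subunits were at least 2-fold lower than mock on day 7, as were 6.57% of expressed genes. Psmb3 (log2 ratio -0.91) and the active-site subunits did not reach that threshold.

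The alpha subunits, whose rings close the ends of the core and form its gate, were a tight group. With the deposited scaling all 7 were at least 2-fold lower than mock on day 7, with log2 ratios from -1.44 to -1.11. On day 1, 4 were at least 2-fold higher, the other 3 lying between 0.97 and 0.99. Of the expressed genes, 6.57% were 2-fold lower on day 7 and 6.68% higher on day 1. With equal totals or quantile normalisation, only 1 of the 31 constitutive subunits was 2-fold lower than mock on day 7. Psma6 had 3388 normalised reads in mock, then 7651, 4806, 2813, 2295 and 1234, Psma5 had 2228, then 5537, 2680, 1893, 1941 and 982, and Psma7 had 5948, then 11738, 6572, 4345, 3547 and 2528. Psma5 was the 1 core gene whose day 5 value was above that of day 4, by 0.036 in log2 units with the deposited scaling. Psma7 had the lowest ratio of all constitutive subunits on day 5 (-0.74). Psma1 had 4017 in mock, then 7908, 6239, 3738, 3088 and 1713, and Psma2 had 3199, then 6735, 4599, 2862, 2420 and 1469. Psma3 had 3186, then 6345, 3961, 2911, 2268 and 1392, and Psma4 had 3056, then 6997, 4044, 2629, 2257 and 1347. In these 4 genes each library after day 1 was lower than the one before it.

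The regulatory particle had a similar day 1 peak and a shallower low on day 7. The median of the 6 ATPase genes was 1.11, 0.32, -0.36, -0.14 and -0.85 for days 1, 3, 4, 5 and 7. On day 1, 4 of the 6 were at least 2-fold higher with the deposited scaling, against 6.68% of expressed genes. On day 7, 0 of the 6 were 2-fold lower, against 6.57%. Psmc1 had 3493 normalised reads in mock and 7530, 4410, 2589, 2835 and 1815 on the 5 days, and Psmc2 had 3233, then 6985, 3857, 2445, 2896 and 1797. For Psmc4 the values were 2844 in mock, then 6590, 3397, 2289, 2689 and 1728, and for Psmc5 they were 2617, then 6049, 3241, 1901, 2399 and 1425. In each of these 4 ATPase genes day 5 was above day 4, and day 7 below both, whereas 1 of the 14 core subunits was higher on day 5 than on day 4. The step from day 4 to day 5 depends on scaling. Centring libraries on the median expressed gene moved the constitutive median from -0.22 to -0.15 on day 4. On day 5 it moved from -0.30 to -0.41. In the base, Psmd1 and Psmd2, which encode its large scaffold subunits, and the ubiquitin receptor gene Psmd4 had log2 ratios of 0.87, 0.90 and 1.00 on day 1 and of -0.49, -0.36 and -0.67 on day 7. Psmd2 had 4354 normalised reads in mock and 8127, 4762, 2608, 4093 and 3399 on days 1, 3, 4, 5 and 7, so that its day 4 value was the lowest.

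The lid was divided, above all on day 4, when its log2 ratios ran from -0.80 to 0.47. Psmd14, the deubiquitinase that removes ubiquitin chains from substrates, had 2642 normalised reads in mock and 5965, 3372, 1890, 1740 and 1225 on days 1, 3, 4, 5 and 7, which is the course of the core. Psmd11 had 2829, then 6533, 3343, 2194, 2242 and 1364, and Psmd12 had 1804, then 3947, 2320, 1638, 1556 and 992; of these, Psmd11 was at least 2-fold lower than mock on day 7. Psmd3, Psmd8 and Psmd7 departed from that course. Psmd3 had 2451 in mock and 5449, 2457, 1400, 2294 and 2082, so that on day 4 it had the lowest ratio of all constitutive subunits (-0.80) and on day 7 the highest (-0.23). Psmd8 had 4376 in mock and 6672, 6596, 6077, 4173 and 1970, so that it had the lowest ratio on day 1 (0.61), the highest on day 4 (0.47) and the lowest of the lid on day 7 (-1.14). With Psmd6 (0.14) and Psmb6 (0.42) it was 1 of 3 constitutive subunits above mock on day 4, a number that came to 2 to 4 of 31 under the other scalings. Psmd7, with 2178 in mock and 5527, 2646, 1751, 2190 and 1429 on the 5 days, was the 1 constitutive subunit not below mock on day 5, and under the other scalings 0 of 31 were above it.

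Regulators outside the core and regulatory particles varied less. Psme3, which encodes a nuclear activator, had 1874 normalised reads in mock and 2750, 1896, 1321, 1828 and 1654 on the 5 days. Psme4, the gene of a large activator known from DNA repair and spermatogenesis, had 260 in mock and between 247 and 356 on the 5 days, and Psmf1, which encodes the inhibitor-like protein PI31, had 753 in mock and between 571 and 1061. None of these 3 genes was 2-fold from mock on any day. All 3 were above mock on day 1 and at least 2 of 3 below it on day 4 under every scaling, while on days 3, 5 and 7 the number above mock went from 0 to 2 with the scaling. The 7 assembly chaperones, which dock alpha subunits (Psmg1 to Psmg4) or ATPases (Psmd5, Psmd9 and Psmd10) and leave the finished particle, were all above mock on days 1 and 3 (medians 0.60 and 0.52) and all below it on day 7 (median -0.57), although with equal totals 2 of the 7 were above it. Psmg2 and Psmd9 were higher on day 3 than on day 1, unlike the other 5. Psmd10, the 1 chaperone at least 2-fold lower than mock on day 7, had 814 normalised reads in mock, then 1240, 1175, 888, 711 and 364.

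Because the scaling of a library cancels in a ratio of 2 genes of that library, the inducible and the constitutive form of each active-site subunit were compared within libraries. On day 3 all 3 inducible genes had lost ground to their counterparts, and on day 5 all 3 had gained. The reads of Psmb8 per read of Psmb5 were 6.405 in mock and 5.56, 3.09, 4.98, 10.9 and 6.79 on days 1, 3, 4, 5 and 7. Those of Psmb10 per read of Psmb7 were 6.998 in mock and 5.18, 3.69, 5.05, 10.7 and 6.94. The 2 ratios had the same course, down to day 3, up to day 5 and back at the mock value on day 7.

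Psmb9 per Psmb6 parted from them on days 4 and 7, with 0.530 in mock and 0.441, 0.246, 0.248, 0.690 and 0.755. Such ratios are not per length of transcript, so only their change between libraries is read here. In log2 units the change from mock on day 3 was -1.05 (95% interval from counting error alone -1.25 to -0.85) for Psmb8 over Psmb5, -1.11 (-1.21 to -1.01) for Psmb9 over Psmb6 and -0.92 (-1.07 to -0.78) for Psmb10 over Psmb7. On day 5 it was 0.76 (0.52 to 1.00), 0.38 (0.27 to 0.49) and 0.61 (0.42 to 0.79) in the same order. On day 1, when all 6 genes were high, the ratios were somewhat below mock, by -0.20, -0.26 and -0.43. On day 7 the intervals of Psmb8 over Psmb5 and of Psmb10 over Psmb7 spanned 0, while Psmb9 over Psmb6 was at 0.51 (0.40 to 0.63).

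**Figure D3:**
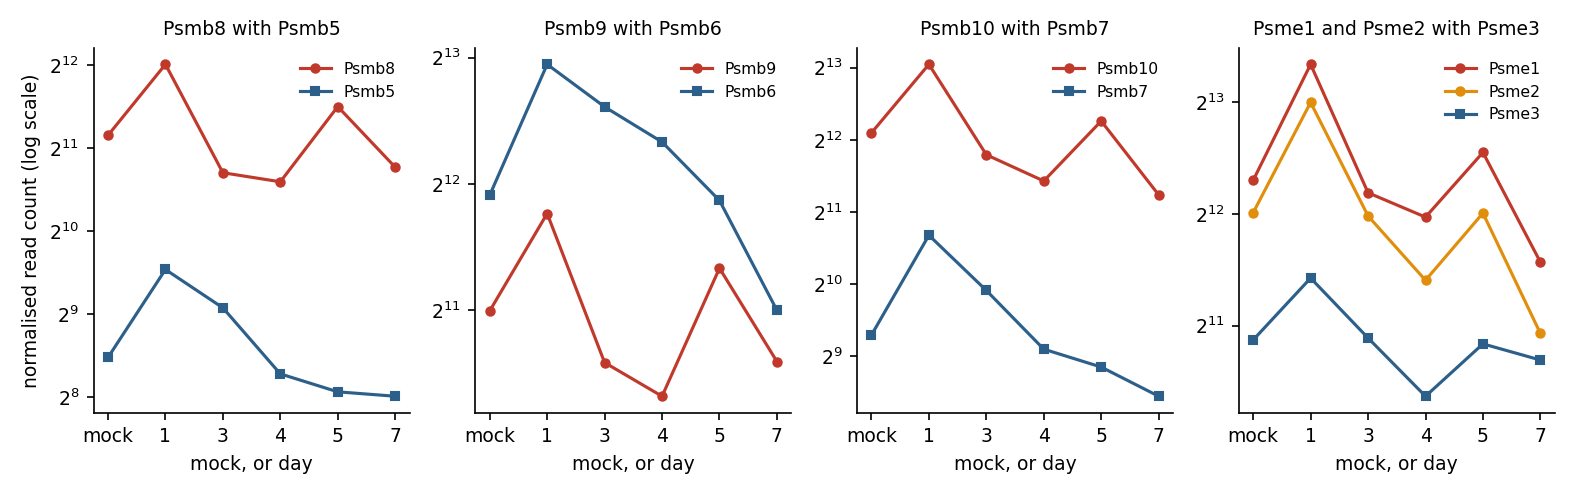
Normalised read count (y axis, log scale with base 2, a separate range in each panel) of each inducible subunit and its constitutive counterpart, and of Psme1 and Psme2 with Psme3, in the 6 libraries; each point is 1 library. On day 5 the inducible genes are above their day 4 value while Psmb5, Psmb6 and Psmb7 are below theirs.

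**Figure D4:**
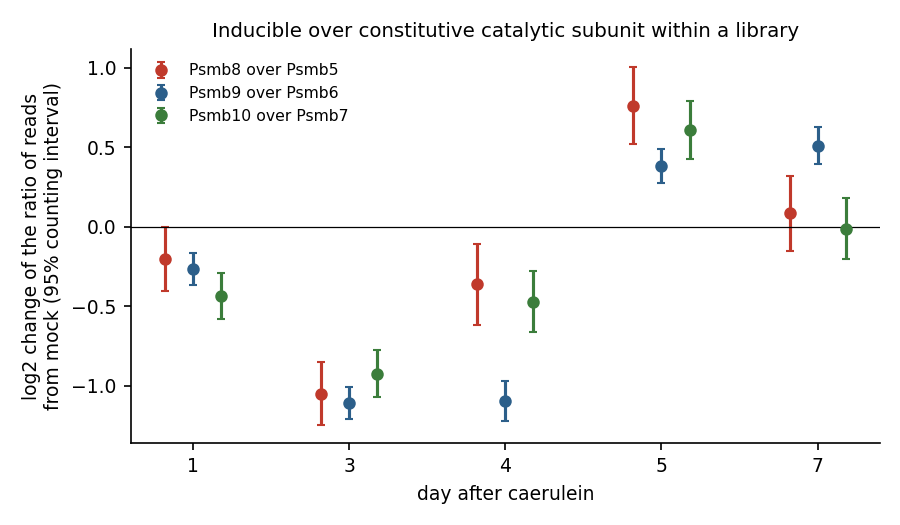
Change from mock (y axis, log2) of the reads of the inducible over the constitutive active-site gene within each library, by day (x axis); bars are 95% intervals for counting error only. All 3 ratios lie between -1.11 and -0.92 on day 3 and between 0.38 and 0.76 on day 5.

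Between the sets, the median of the 5 immunoproteasome genes minus that of the 31 constitutive subunits was -0.14, -0.67, -0.39, 0.55 and 0.21 for days 1, 3, 4, 5 and 7. Set against the 14 core particle subunits alone, a choice made after the data were seen, the difference was -0.81, 0.68 and 0.43 for days 3, 5 and 7. The activator genes were compared with Psme3 in the same manner. Psme2 per Psme3 stood at 2.20 reads in mock and at 2.97, 2.13, 2.05, 2.25 and 1.18 on the 5 days, so that this ratio was highest on day 1, close to mock on days 3, 4 and 5, and lowest on day 7. Psme1 per Psme3 had 2.69 in mock and 3.77, 2.46, 3.04, 3.28 and 1.84. This ratio was above mock on days 4 and 5, by 0.17 (0.048 to 0.30) and 0.29 (0.18 to 0.39) in log2 units, and below it on day 3, by -0.13 (-0.23 to -0.030).

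Transcript length moved with the ratios on several days. Across 9699 expressed genes with a known transcript length, Spearman's rho between length and the log2 ratio to mock was 0.43 on day 7 and -0.28 on day 3, so that short transcripts were low on day 7 and high on day 3; genes of 1 library share its RNA and its depth. The transcripts of the constitutive subunits are short, at a median of 1581 bases against 3063 for the expressed genes, and those of the immunoproteasome genes have a median of 1311. Within the 31 constitutive subunits rho was 0.26 on day 7 and -0.36 on day 3. The 2685 expressed genes within the range of level and length of the constitutive subunits (766 to 3112 bases) had median log2 ratios of 0.31, 0.21 and -0.41 for days 1, 3 and 7. The constitutive medians of 1.09, 0.36 and -0.94 lay farther from 0 on each of these days. The part of length in them was not tested.

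The immunoproteasome genes had their 2 peaks in the libraries in which interferon-induced genes were high. The 10 interferon-induced genes listed had medians against mock of 2.61, -2.49, -2.72, 1.03 and -1.06 on days 1, 3, 4, 5 and 7, and the 10 genes known to be induced by interferon gamma 0.39, -1.66, -1.42, 0.54 and -0.34. The medians of all 3 sets were above mock on days 1 and 5 and below it on days 3, 4 and 7. The interferon gamma list was split, with 8 of 10 genes above mock on day 1 and 7 on day 5. With equal totals these counts came to 6 and 5, and with quantile normalisation the day 1 median of the list was 0.12. Of the 10000 expressed genes, 6011 and 6035 were above mock on these days with the deposited scaling. The immunoproteasome medians spanned far less than those of the interferon-induced genes and somewhat less than those of the interferon gamma list, whose day 1 median was below theirs. Nlrc5, the transactivator of MHC class I genes, had 271 normalised reads in mock and 374, 54.9, 105, 443 and 470 on the 5 days. It was below mock on days 3 and 4 and above it on days 1, 5 and 7.

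In the median, genes of MHC class I presentation were above mock on days 1 and 5 and below it on days 3 and 4, as the immunoproteasome genes were. On day 7 the 2 sets differed, with 6 of the 7 class I genes above mock and 0 of the 5 immunoproteasome genes. The 7 genes listed had medians of 0.61, -0.82, -0.44, 0.91 and 0.29 on days 1, 3, 4, 5 and 7. Tap1, a subunit of the transporter that carries proteasome products into the endoplasmic reticulum, had 1942 normalised reads in mock and 2972, 680, 792, 3657 and 3146. Unlike Psmb9 it was higher on day 5 than on day 1 and stayed above mock on day 7. T and NK cells and B cells also carry the immunoproteasome. The 8 T and NK cell markers summed to 4402 in mock and to 1119, 460, 1001, 2042 and 7705 for days 1, 3, 4, 5 and 7, and the 5 B cell markers to 5602, then 1714, 676, 1027, 1199 and 4720. Both sums were below mock on days 1 and 5, when most immunoproteasome genes were above it. Like those genes, both were also lower on day 3 than on day 1 and higher on day 5 than on day 4. The 5 dendritic cell markers summed to 864 in mock, then 391, 551, 1462, 1246 and 1321. The part of other leukocytes in the immunoproteasome values was not tested.

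**Figure D5:**
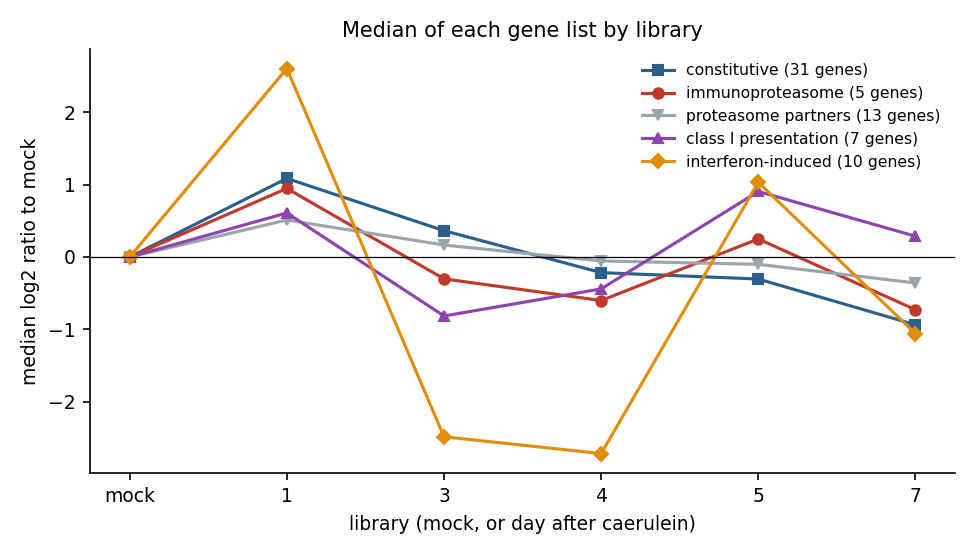
Median log2 ratio to mock (y axis) of 5 gene lists in the 6 libraries (x axis, evenly spaced). The interferon-induced genes range from -2.72 to 2.61; the immunoproteasome genes have peaks in the same libraries within -0.73 and 0.95, and the constitutive median has no peak on day 5.

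Psmb9 and Tap1 start back to back. In RefSeq's mouse annotation (GRCm38.p6) their first bases lie at chr17:34187330 on the minus strand and chr17:34187556 on the plus strand, with 225 bases between them, so that they share 1 promoter region. Promoter windows of 300 bases (250 before and 50 after the start) were given for 40 of the 48 members, including all 5 immunoproteasome genes and 25 constitutive subunits, and were searched on both strands for 4 short motifs. The interferon-stimulated response element (GAAA, any 2 bases, GAAA) was found in 1 of the 5 immunoproteasome genes, 2 of the 25 constitutive subunits and 3.99% of all 27025 genes with a window. The gamma-activated site (TTCNNNGAA) was found in 1 of 5, 1 of 25 and 9.55% of genes. The antioxidant response element (TGACNNNGC), through which NFE2L1 is known to act on proteasome genes, was found in 0 of 5, 4 of 25 and 13.99%, and the CCAAT box in 1 of 5, 10 of 25 and 41.1%. Of these matches 7 are shown, in capitals, chosen for the immunoproteasome genes, for the constitutive subunits with the interferon-stimulated element and for the active-site subunits with the antioxidant element, on the strand of the gene from 5′ to 3′. They are descriptions of letters, and whether any factor was bound there was not measured. The stretches shown for Psmb8, Psmb9 and Psme1 lie wholly within annotated exons (30 of 30 bases each), and those of the other genes shown have 0 bases in exons.

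Psmb8, gamma-activated site, chr17:34198091-34198120, plus strand: tccgctgTTCCCAGAAgatgcccccccccg

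Psmb9, CCAAT box on the other strand, in the region shared with Tap1, chr17:34187321-34187350, minus strand: gcgcagccgctgATTGGaaagccgagcccc

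Psme1, interferon-stimulated response element on the other strand, chr14:55578494-55578523, plus strand: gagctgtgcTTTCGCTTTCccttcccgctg

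Psmb3, interferon-stimulated response element on the other strand, chr11:97703261-97703290, plus strand: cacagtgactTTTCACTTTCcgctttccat

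Psmd4, interferon-stimulated response element on the other strand, chr3:95042675-95042704, minus strand: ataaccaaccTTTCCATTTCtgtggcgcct

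Psmb5, antioxidant response element, chr14:54618023-54618122, minus strand: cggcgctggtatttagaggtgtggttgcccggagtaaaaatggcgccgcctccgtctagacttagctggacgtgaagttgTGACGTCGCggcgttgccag

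Psmb6, antioxidant response element, chr11:70525247-70525366, plus strand: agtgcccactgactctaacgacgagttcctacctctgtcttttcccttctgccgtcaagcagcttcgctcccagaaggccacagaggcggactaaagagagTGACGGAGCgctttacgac

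The matches were too few to say whether they divided the genes by course. Psmb8, with the gamma-activated site, and Psme1, with the interferon-stimulated element, were above mock on day 5 (log2 ratios 0.34 and 0.25). Psmd2, with the gamma-activated site, was below it. Psmb3 and Psmd4, which hold the interferon-stimulated element, were below mock on day 5 (log2 ratios -0.49 and -0.12), whereas Psmb9, with a peak on that day, held neither interferon motif in this window. Psmb5 and Psmb6, which hold the antioxidant element, had day 1 ratios of 1.03 each, near the constitutive median.

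Some partners of the proteasome outside the rule had the course of the core. Of 13 such genes found, 13 were above mock on day 1, 2 of them at least 2-fold, and 10 were below it on day 7, 3 of them at least 2-fold. With libraries scaled to equal totals, 10 of 13 were above mock on day 1 and 8 of 13 below it on day 7. Of the 10000 expressed genes, 6011 were above mock on day 1 and 5760 below it on day 7 with the deposited scaling. Pomp, the chaperone that matures the core particle, had 3136 normalised reads in mock and 6489, 4632, 3061, 2449 and 1422 on days 1, 3, 4, 5 and 7, which is the course of the core subunits. Adrm1, a ubiquitin receptor of the regulatory particle, had 2319 in mock, 5897 on day 1 and 2094 on day 7, and so showed the peak without the late low. The lid subunit listed as Shfm1 (1411 in mock, 573 on day 7) and the deubiquitinase Uchl5 (718 in mock, 1541 on day 3, 293 on day 7) had the lowest day 7 ratios of the list, -1.28 and -1.24.

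Nfe2l1 and Nfe2l2 encode transcription factors known to act on constitutive proteasome genes. Their transcripts were above mock on day 1, when the subunits peaked (log2 ratios 0.54 and 0.33), but were highest on other days. The protein and activity of these factors were not measured, and their part in the subunit values was not tested. Nfe2l1, which raises proteasome genes when proteasome activity is short, had 863 normalised reads in mock and 1259, 714, 543, 1316 and 1481, so that it was highest on day 7, when the subunits were lowest. Nfe2l2 had 3757 in mock and was highest on day 4, at 6440. Of 5 genes for ubiquitin and its activating enzyme Uba1, 0 were at least 2-fold higher than mock on any day and 1 was at least 2-fold lower, Rps27a on day 7 (-1.01). Ubb had 41912 in mock and 28796 to 53351 on the 5 days.

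A count test on the reads recovered from the table, added after the data were seen, set the 5 caerulein libraries as replicates against the 1 mock library. It called 0 of 14106 genes (0%) with edgeR's quasi-likelihood test after Benjamini-Hochberg adjustment, 0 of the 48 members among them, with 24 genes higher, 78 lower and 0 members at an unadjusted p under 0.05. Since it averages days on which the members lay on opposite sides of mock, it does not bear on single days.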

How the data were processed

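RNA-seq values were used for 1 library of each of 6 groups: mock and 5 days after caerulein, assigned by title. The deposited table gives, for each gene, a signal already normalised by the authors. Each column holds whole multiples of 1 step (100% of values within 0.01 reads), which is what gene counts give after division by a single factor for each library. Bowtie 0.12.2 and the build mm8 are named, without a role, in the submitters' processing notes. For the gene counter, the annotation and the use of strand, nothing is given in the sources used here. The values of genes with close copies, such as Psme2 and Psme2b, are therefore uncertain.

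The 10000 genes of highest mean were called expressed. Log2 ratios used a pseudocount of 17.8, and 2-fold was the threshold for counts. With 1 library per group no test of a day is possible. Clopper-Pearson intervals of read ratios, and intervals for the change of a ratio of 2 genes from the counting variance of the 4 counts, are at 95%. A read was worth 0.704 to 1.29 normalised units. Transcript lengths are those of the longest protein-coding transcript in GENCODE M21, and promoter sequences come from RefSeq (GRCm38.p6), matched by symbol.

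The members with full values are the immunoproteasome genes, Psmb5, Psmb6, Psmb7, Psme3, Psme4, Psmf1 and, per day, the constitutive subunits with the highest and lowest ratio, and any member 2-fold from mock on a day; of outside lists at most 4 genes each, those with the widest range, were named. Other members were named as examples. An outside gene that this rule would name is not reported here. The members and lists were chosen with earlier results of these data known. Calculations were tested on simulated data. R 4.3.3 with edgeR 4.0.16 was used for the added count test, on 14106 genes with a total of 60 reads or more, and Python 3.11.15 with scipy 1.17.1, matplotlib 3.10.9, pandas 2.3.3 and numpy 2.4.6 for the rest.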

Additional observations from a re-analysis of the deposited data

How the results depend on the processing

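Of 120 values of the constitutive medians, their difference from the immunoproteasome, the active-site pairs and the counts of members, 0 changed sign, and 92 moved by less than their counting error or, for counts, by at most 1.5 times. A pseudocount of 1, no filter on low values, means in place of medians and ratios without a pseudocount moved none beyond that. Some of the 120 outcomes were fixed in advance. Counts cannot change sign, the filter removed none of the genes behind the medians, and median centring cancels in the difference between the sets. Centring libraries on the median expressed gene gave constitutive medians of 0.98 on day 1 and -0.41 on day 5, and 13 members at least 2-fold from mock on day 1. Equal totals gave constitutive medians of 0.84, 0.26, -0.41, -0.45 and -0.66 on days 1, 3, 4, 5 and 7, and 5 members on day 1 and 1 on day 7; the median of all expressed genes itself went from 0.15 to -0.08 on day 1 and from -0.11 to 0.16 on day 7. Medians of smaller lists near 0 did change sign with scaling, such as that of the assembly chaperones on day 4 (0.12, with equal totals -0.064), of the other activators and inhibitor on day 5 (0.069, with median centring -0.037) and of the partners on day 4 (-0.055, with median centring 0.0099). Quantile normalisation gave constitutive medians of 0.76, 0.26, -0.39 and -0.74 on days 1, 3, 5 and 7, 3 members on day 1 and 3 on day 7, and a difference between immunoproteasome and constitutive genes of 0.40 on day 7. That difference was -0.041 on day 1 and 0.44 on day 5 against all other members. With the 3 inducible catalytic subunits alone it was -0.24, -0.77 and 0.54 on days 1, 3 and 7. Against the 14 core subunits, an alternative added after the data were seen, it was -0.81, 0.68 and 0.43 on days 3, 5 and 7, with core medians of 0.51, -0.43 and -1.16. The cause of these shifts was not tested. No paired analysis was possible because the labels number no replicates and each group holds 1 library. Of the core subunits, Psmb5 and Psmb7 had the fewest reads, with 240 to 766 and 411 to 1364 reads per library.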

Other observations

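Per kilobase of transcript, the subunits of the core particle, which are built into it in equal numbers, differed widely in the mock library. Psma7 had 5141 normalised reads per kilobase, Psmb6 4825 and Psmb2 4636, against 539 for Psmb7 and 396 for Psmb5. Psmb5 and Psmb7 were the lowest of the 14 core genes in all 6 libraries. The table also holds rows for pseudogenes of Psmb5 and Psmb6, which lie outside the set described here, and the sources used here do not say how reads shared with such copies were counted. Per kilobase in mock, the inducible Psmb8 (1401) and Psmb10 (3339) stood above Psmb5 and Psmb7, while Psmb9 (1509) stood below Psmb6.

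Together the 31 constitutive subunits took 0.533% of all reads in mock and 0.935%, 0.648%, 0.403%, 0.394% and 0.340% on days 1, 3, 4, 5 and 7. The 5 immunoproteasome genes took 0.106% in mock and 0.174%, 0.0854%, 0.0640%, 0.110% and 0.0774%. These shares use the library totals, which include acinar reads.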
